A study of Mus musculus with 12 samples.

Results

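The genes described here are 10 genes of the acute stress and growth response, chosen by symbol from the 17859 genes of the transformed expression table and joined by Ensembl identifier to the count table, which held all 10. They are the AP-1 subunits Fos, Jun and Junb, the other immediate early factors Egr1, Atf3, Myc and Ier2, and the Gadd45 family members Gadd45a, Gadd45b and Gadd45g. Liver RNA came from 12 adult male mice in 4 groups of 3, which were WT mice given corn oil (CO), WT mice given CITCO, hCAR/hPXR mice given CITCO and Car KO/hPXR mice given CITCO. CITCO is an activator of human CAR (constitutive androstane receptor). The paper cites in vitro work which proposes that CITCO also activates human PXR. The labels give a dose of 10 mg/kg injected into the peritoneum on each of 4 days, with tissue taken on day 5 (the methods give 10 or 50 mg/kg). In hCAR/hPXR mice the mouse receptors Car and Pxr are replaced by the human receptors, and Car KO/hPXR mice lack Car and carry human PXR, both on a C57BL/6NTac background. Corn oil libraries came only from WT mice, so the effect of CITCO and that of genotype cannot be told apart in the humanised and deleted groups.

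Immediate early genes are transcribed within minutes of a signal from preformed factors, and their RNAs are quickly destroyed. Fos and Jun proteins pair to form AP-1, Egr1 is a zinc finger factor induced by MAP kinase signalling, and Atf3 and Myc are induced by stress and by growth signals. The Gadd45 proteins are small acidic regulators of MAP kinase kinase kinases, DNA repair and the cell cycle, Gadd45a is a known p53 target, and Gadd45b is known in mouse liver as a gene induced through CAR and as a coactivator of the receptor.

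The sequenced fragments lie at the 3' end of each transcript and were counted per gene. Library totals were between 1451214 and 2341572 counts in WT CO, 1370357 and 1654448 in WT CITCO, 1167027 and 2012820 in hCAR/hPXR, and 1172227 and 1499517 in Car KO/hPXR. A floor of 3 counts was worth between 1.34 and 2.5 CPM (counts scaled to a common library size, with TMM factors), and this covers counting error only. The receptor genes followed the genotype labels, with Nr1i2 (mouse Pxr) at 100 to 199 counts in the 6 WT libraries and 0 to 2 in the other 6, and Nr1i3 (mouse Car) at 104 to 287 counts in the 6 WT libraries and 0 to 6 in the other 6. Hepatocyte markers summed to between 45636 and 62885 CPM over the 12 libraries. In bulk tissue, fewer cells of a type and less RNA per cell cannot be told apart.

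Of the 10 genes, 6 passed edgeR's expression filter and were tested among 8594 genes (Jun, Junb, Egr1, Ier2, Gadd45a and Gadd45g). Fos, Atf3, Myc and Gadd45b did not. The filter asked for 6.50 CPM in at least 3 libraries. Gadd45a reached it in 5 libraries, 2 of WT CITCO and 3 of hCAR/hPXR, and Gadd45g in 4, of which 3 were WT CITCO and 1 Car KO/hPXR, so that both genes were tested because of the groups in which they were high. Values below are counts for replicates 1, 2 and 3 of a group, followed by the mean ± SD in CPM (n = 3).

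The promoters of the 3 Gadd45 genes are shown to compare the family, and that of Junb as the AP-1 gene with unadjusted p-values under 0.05. RefSeq promoters (GRCm38.p6, 250 bases before the start to 50 after) were found for 7 of the 10 genes (Fos, Jun, Junb, Atf3, Gadd45a, Gadd45b and Gadd45g), and not for Egr1, Myc and Ier2. Each sequence is given 5' to 3' on the strand of the gene, and capitals mark matches on either strand. The motifs marked were the TATA box TATAAA, the CCAAT box, the core TGACG of the cyclic AMP response element, the Egr factor motif GCGNGGGCG and the E-box CACGTG, which Myc and its partners bind.
Junb, chr8:84978699-84978998, minus strand: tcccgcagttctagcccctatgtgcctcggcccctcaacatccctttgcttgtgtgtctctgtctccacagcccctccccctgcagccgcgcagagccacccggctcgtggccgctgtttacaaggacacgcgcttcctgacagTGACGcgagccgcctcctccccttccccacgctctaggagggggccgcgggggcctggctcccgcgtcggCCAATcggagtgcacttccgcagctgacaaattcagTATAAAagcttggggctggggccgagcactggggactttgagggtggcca
Gadd45a, chr6:67037358-67037657, minus strand: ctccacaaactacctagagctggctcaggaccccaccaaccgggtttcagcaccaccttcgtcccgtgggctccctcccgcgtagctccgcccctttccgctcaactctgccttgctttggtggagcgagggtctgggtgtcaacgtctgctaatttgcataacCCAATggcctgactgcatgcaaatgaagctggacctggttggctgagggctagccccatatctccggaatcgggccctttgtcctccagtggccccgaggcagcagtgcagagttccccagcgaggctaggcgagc
Gadd45b, chr10:80929841-80930140, plus strand: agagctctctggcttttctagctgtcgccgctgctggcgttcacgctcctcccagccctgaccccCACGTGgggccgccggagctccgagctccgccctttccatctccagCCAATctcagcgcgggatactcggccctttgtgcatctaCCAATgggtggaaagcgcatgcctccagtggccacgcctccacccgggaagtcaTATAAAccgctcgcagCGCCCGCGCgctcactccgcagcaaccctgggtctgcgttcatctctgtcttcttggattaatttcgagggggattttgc
Gadd45g, chr13:51846425-51846724, plus strand: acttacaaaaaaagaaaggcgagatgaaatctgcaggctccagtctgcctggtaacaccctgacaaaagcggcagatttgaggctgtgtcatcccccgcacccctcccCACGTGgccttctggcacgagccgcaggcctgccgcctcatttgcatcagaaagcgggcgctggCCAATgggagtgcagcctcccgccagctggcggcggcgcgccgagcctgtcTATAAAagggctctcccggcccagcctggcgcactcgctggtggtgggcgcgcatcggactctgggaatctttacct
All 4 windows held CCAAT, which is present in 37.4% of the 32851 promoters of the same length. TATAAA was in the windows of Junb, Gadd45b, Gadd45g and Fos, against 13.6% of all promoters, and not in those of Gadd45a, Jun and Atf3. It began 46, 27 and 33 bases before the start site in Gadd45b, Gadd45g and Fos, but at the annotated start site itself in Junb. The E-box stood in Gadd45b and Gadd45g (7.15% of all promoters), the Egr motif in Gadd45b (5.55%) and TGACG in Junb, Fos and Atf3 (20.8%). No window of the 7 held the full element TGACGTCA, the AP-1 motif TGANTCA, the CArG box or the nuclear receptor core motif AGGTCA, which were in 1.79%, 7.81%, 1.63% and 16.3% of all promoters. Sequence farther than 250 bases upstream was not searched. The Atf3 window (chr1:191183284-191183583) lies inside the gene model given below and not at its 5' end. A match is a match of letters only.

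On GRCm38, with GENCODE M21 gene models, a release other than that of the authors, Fos lay at chr12:85473890-85477273 on the plus strand with 4 exons and no overlapping gene. Jun (chr4:95049034-95052222, minus strand) and Junb (chr8:84974484-84978718, minus strand) have 1 exon each. Egr1 (chr18:34859823-34864984) and Myc (chr15:61985391-61990374), on the plus strand, have 2 to 3 exons in their coding transcripts, Atf3 (chr1:191170296-191218039, minus strand) has 4, and Ier2 (chr8:84661331-84662852, minus strand) has 1. Gadd45a (chr6:67035096-67037457, minus strand) and Gadd45b (chr10:80930073-80932204, plus strand) have 3 to 4 exons, and Gadd45g (chr13:51846678-51848468, plus strand) has 4. Jun overlaps the antisense gene Junos over 689 bases at its 5' end, Gadd45a overlaps the RNA gene E230016M11Rik over 859 bases, Atf3 overlaps the small RNA gene Gm24748 on the other strand over 108 bases, and Junb overlaps the 3' end of Prdx2, a peroxidase gene on the other strand, over 351 bases. The strand setting of the counting was not given in the sources used here, so reads of overlapping genes may not have been told apart. Prdx2 had 140 to 285 counts per library and log2 differences between -0.10 and 0.01 in the 6 comparisons, while Junos and E230016M11Rik had at most 5 counts in any library.

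Over the 6 comparisons, no member passed both an adjusted p under 0.05 and a fold over 1.5, which 0.233% of the genes tested did between WT CITCO and WT CO, 0.407% between hCAR/hPXR and WT CITCO, 0.256% between Car KO/hPXR and WT CITCO, 0.582% between hCAR/hPXR and Car KO/hPXR, 0.989% between hCAR/hPXR and WT CO and 0.0465% between Car KO/hPXR and WT CO (edgeR). At an unadjusted p under 0.05 the numbers of members were 2, 2, 4, 1, 1 and 0 of 6 in the same order, against 9.13%, 8.81%, 9.30%, 10.6%, 10.9% and 5.60% of the genes tested. By member, Gadd45a gave 4 of these, Gadd45g 3, Junb 2 and Egr1 1. Gadd45a and Gadd45g were tested because of the groups in which they were high, so no excess over these shares can be read from the numbers. The libraries of the 2 groups did not overlap for Junb, Myc and Gadd45a between WT CITCO and WT CO (14.7% of the genes tested), and for Junb, Gadd45b and Gadd45g between hCAR/hPXR and WT CITCO (13.6%). The same was so for Junb between Car KO/hPXR and WT CITCO (14.2%), for Gadd45a and Gadd45b between hCAR/hPXR and Car KO/hPXR (15.1%), for Jun, Gadd45a and Gadd45b between hCAR/hPXR and WT CO (16.2%), and for Gadd45a between Car KO/hPXR and WT CO (11.6%). Myc and Gadd45b did not pass the filter and were near the floor, so these shares, over tested genes only, do not apply to them. Over the same 6 comparisons DESeq2 called Junb between Car KO/hPXR and WT CITCO (adjusted p = 0.0484). In each of them it gave an adjusted p for 2 of the members only, so that the others were fitted but could not be called.

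Junb, a subunit that can pair with Fos in AP-1, had its lowest level in WT mice given CITCO, with 55, 58 and 73 counts (42.4 ± 8.08 CPM). In WT CO it had 145, 120 and 107 counts (71.4 ± 11.5 CPM). It stood at 145, 272 and 64 counts in hCAR/hPXR (95.3 ± 54.8 CPM) and 82, 177 and 127 counts in Car KO/hPXR (101 ± 47.9 CPM). In both of these groups replicate 2 held the highest value, and on the CPM scale the 3 WT CITCO libraries did not overlap those of any other group.
The log2 fold change against WT CITCO was 1.18 (SE 0.36, edgeR adjusted p = 0.251) in hCAR/hPXR and 1.25 (SE 0.36, edgeR adjusted p = 0.187) in Car KO/hPXR. Neither passed the threshold in this fit. Without the filter on low counts, which raised the genes called from 35 and 22 to 184 and 227, both passed (edgeR adjusted p = 1.36e-05 and 5.39e-06). With DESeq2 only the comparison of Car KO/hPXR passed (adjusted p = 0.0484). Without hCAR/hPXR replicate 2 the log2 fold change of hCAR/hPXR was 0.61, and without Car KO/hPXR replicate 2 that of Car KO/hPXR was 0.87. The 2 comparisons share the WT CITCO libraries. Between WT CITCO and WT CO the log2 difference was -0.75 (95% interval -1.51 to 0.01).

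Jun was counted in all 12 libraries, at 20, 9 and 21 counts in WT CO (9.33 ± 3.18 CPM), 27, 10 and 19 in WT CITCO (12.6 ± 5.34), 30, 23 and 22 in hCAR/hPXR (15.7 ± 2.53) and 23, 16 and 12 in Car KO/hPXR (12.6 ± 2.47). Its groups overlapped, except hCAR/hPXR and WT CO. No comparison reached an unadjusted p under 0.05, and the 6 log2 differences lay between 0.00 and 0.73, with 95% intervals reaching from -0.78 to 1.5.
Fos, the partner of Jun in AP-1, was at 4, 0 and 0 counts in WT CO, 1, 0 and 0 in WT CITCO, 0 in all hCAR/hPXR libraries and 0, 0 and 3 in Car KO/hPXR. It was at 0 in 9 of 12 libraries, so differences between groups were not detectable at this depth.

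Egr1 varied widely within groups, with an SD of 85.4% of the mean in Car KO/hPXR and 55.3% in WT CITCO. It had 91, 84 and 46 counts in WT CO (42.6 ± 15.8 CPM), 62, 17 and 36 in WT CITCO (25.8 ± 14.2), 48, 67 and 34 in hCAR/hPXR (30.7 ± 7.23) and 44, 135 and 36 in Car KO/hPXR (56.7 ± 48.5). The highest value, 113 CPM, was that of Car KO/hPXR replicate 2, the library with the second highest Junb, while the lowest was that of WT CITCO replicate 2. The groups overlapped in all 6 comparisons. Car KO/hPXR was above WT CITCO by 1.11 on the log2 scale (SE 0.48, edgeR adjusted p = 0.474), and by 0.15 without Car KO/hPXR replicate 2. Without the filter on low counts the edgeR adjusted p was 0.00324, with the same rise in genes called as for Junb.

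Ier2, a nuclear factor of the immediate early response, had its highest library 2.84-fold above its lowest. Counts were 22, 14 and 20 in WT CO (10.6 ± 1.28 CPM), 23, 22 and 13 in WT CITCO (13.1 ± 3.42), 14, 21 and 8 in hCAR/hPXR (8.69 ± 3.01) and 10, 16 and 22 in Car KO/hPXR (12.6 ± 5.89). All groups overlapped and the 6 log2 differences were between -0.57 and 0.31, with intervals from -1.42 to 1.13.

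Atf3 and Myc were near the floor. Atf3 had at most 3 counts in any library, with 3, 1 and 1 in WT CO, 1, 0 and 1 in WT CITCO, 1, 2 and 0 in hCAR/hPXR and 2, 0 and 0 in Car KO/hPXR. Myc was at 0 in the 3 WT CO libraries, at 1, 6 and 1 in WT CITCO, at 0, 2 and 1 in hCAR/hPXR and at 0, 1 and 1 in Car KO/hPXR. The 6 counts of 1 library stand out, but they were the only Myc value over the floor and no fold is given.

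Gadd45a, which binds PCNA and CDK1 and arrests the cell cycle, had its highest levels in WT and hCAR/hPXR mice given CITCO. It had 1, 2 and 4 counts in WT CO (1.42 ± 0.98 CPM), 22, 13 and 4 in WT CITCO (8.69 ± 5.73), 23, 17 and 8 in hCAR/hPXR (9.47 ± 2.64) and 4, 4 and 6 in Car KO/hPXR (3.60 ± 1.21). All 3 hCAR/hPXR libraries lay above all libraries of WT CO and of Car KO/hPXR, and 2 of the 3 WT CITCO libraries did so too. WT CITCO replicate 3, with 4 counts, sat near the WT CO libraries.
Against WT CO, Gadd45a was higher by 2.77 on the log2 scale in hCAR/hPXR (SE 0.66, edgeR adjusted p = 0.0540) and by 2.63 in WT CITCO (SE 0.67, edgeR adjusted p = 0.153). Against Car KO/hPXR, hCAR/hPXR was higher by 1.42 (SE 0.60, edgeR adjusted p = 0.401). The log2 fold change of Car KO/hPXR against WT CITCO was -1.28 (SE 0.61, edgeR adjusted p = 0.536), and -0.73 when WT CITCO replicate 1 was left out. The difference of hCAR/hPXR from WT CITCO was 0.14 (95% interval -0.97 to 1.24). That of Car KO/hPXR from WT CO was 1.35 (95% interval -0.26 to 2.95), with libraries that did not overlap. None of these adjusted p-values was under 0.05. Without the filter on low counts, Gadd45a passed against WT CO in hCAR/hPXR (edgeR adjusted p = 0.00310) and in WT CITCO (edgeR adjusted p = 0.0126). That setting also raised the genes called over the whole table, from 85 to 261 and from 20 to 179. Without WT CITCO replicate 3 the difference between WT CITCO and WT CO was 3.04 (edgeR adjusted p = 0.0343), without WT CITCO replicate 1 it was 2.07 (0.531), and without WT CO replicate 3 it was 3.26 (0.248). The difference between hCAR/hPXR and WT CO ranged from 2.26, without WT CO replicate 1, to 3.39, without WT CO replicate 3.

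Gadd45g, an activator of the MAP kinase kinase kinase MEKK4, had its highest level in WT mice given CITCO. It had 15, 3 and 1 counts in WT CO (3.15 ± 3.18 CPM), 35, 51 and 9 in WT CITCO (21.4 ± 14.5), 7, 3 and 0 in hCAR/hPXR (1.79 ± 1.81) and 12, 3 and 7 in Car KO/hPXR (5.29 ± 2.59). Each WT CITCO library was above each hCAR/hPXR library, while WT CITCO replicate 3, with 9 counts, lay within the range of WT CO and of Car KO/hPXR.
The test over all 4 groups gave an edgeR adjusted p of 0.0459 for Gadd45g, past the threshold of 0.05 that 1.42% of the 8594 genes passed, and 0.0948 for Gadd45a. Both genes passed the filter because of the groups in which they were high. Their p-values from filtered fits, here and in the single comparisons, are therefore not independent of that choice. Of 18 alternative fits, 7 gave Gadd45g an adjusted p under 0.05 and the range was 2.47e-09 to 0.349, the highest without WT CITCO replicate 2. Of the 12 libraries, only WT CO replicate 1 and WT CITCO replicate 3 could be left out with the adjusted p staying under 0.05.

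In the single comparisons, Gadd45g was higher in WT CITCO than in WT CO by 2.63 on the log2 scale (SE 0.69, edgeR adjusted p = 0.168). Without WT CO replicate 1 this was 3.95 (edgeR adjusted p = 0.112), without WT CO replicate 3 it was 2.17 (0.522), and without WT CITCO replicate 2 it was 2.10 (0.519). Its log2 fold change against WT CITCO was -3.37 in hCAR/hPXR (SE 0.76, edgeR adjusted p = 0.0664) and -1.97 in Car KO/hPXR (SE 0.68, edgeR adjusted p = 0.301). None of these adjusted p-values was under 0.05, while without the filter on low counts all 3 were (edgeR adjusted p = 5.18e-05, 3.83e-07 and 0.00780). That setting also raised the genes called over the whole table, from 20, 35 and 22 to 179, 184 and 227 in these comparisons. The low adjusted p-values are therefore not particular to Gadd45g. The fold change of hCAR/hPXR was -4.32 without hCAR/hPXR replicate 1 (edgeR adjusted p = 0.115) and -2.85 without WT CITCO replicate 2 (0.332). Without WT CITCO replicate 3, the library with 9 counts, the difference from WT CO (3.06, edgeR adjusted p = 0.0404) and that of hCAR/hPXR (-3.81, 0.0213) passed. The other members had adjusted p-values of 0.251 (Junb), 0.566 (Egr1), 0.727 (Jun) and 0.834 (Ier2) in the test over 4 groups with edgeR.

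Gadd45b was near the floor, with 2, 0 and 0 counts in WT CO, 1, 0 and 1 in WT CITCO, 4, 2 and 2 in hCAR/hPXR (1.63 ± 0.46 CPM) and 0, 1 and 0 in Car KO/hPXR. The 3 hCAR/hPXR libraries were above all 9 others on the CPM scale, but with 8 reads in all, and the exact permutation test between 2 groups of 3 gave p = 0.1 (two-sided), the smallest it can give. No fold change is given for values at this floor.

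**Figure D1:**
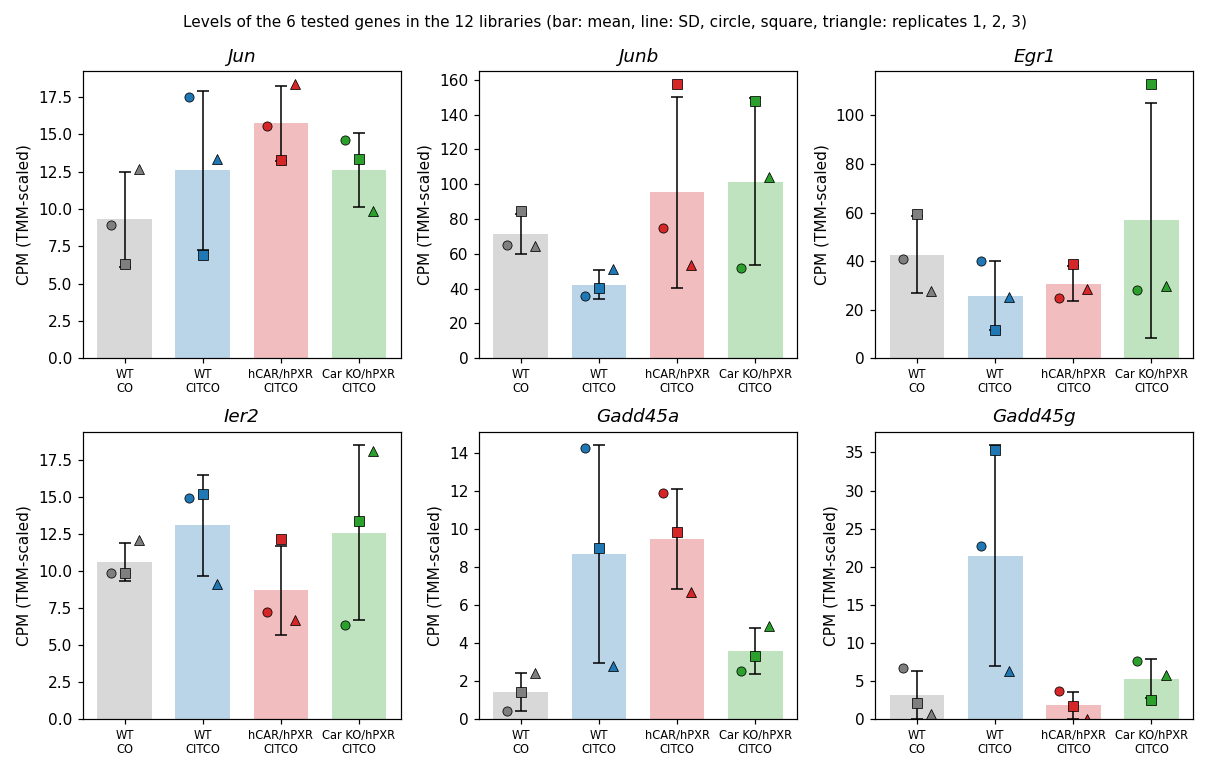
CPM (TMM-scaled, vertical axis) of the 6 tested genes in the 4 groups, with points for the replicates, bars for the mean and lines for the SD (n = 3). Gadd45g is highest in WT CITCO at 21.4 CPM. Gadd45a is above WT CO (1.42 CPM) in WT CITCO and hCAR/hPXR, and by less in Car KO/hPXR (3.60 CPM).

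**Figure D2:**
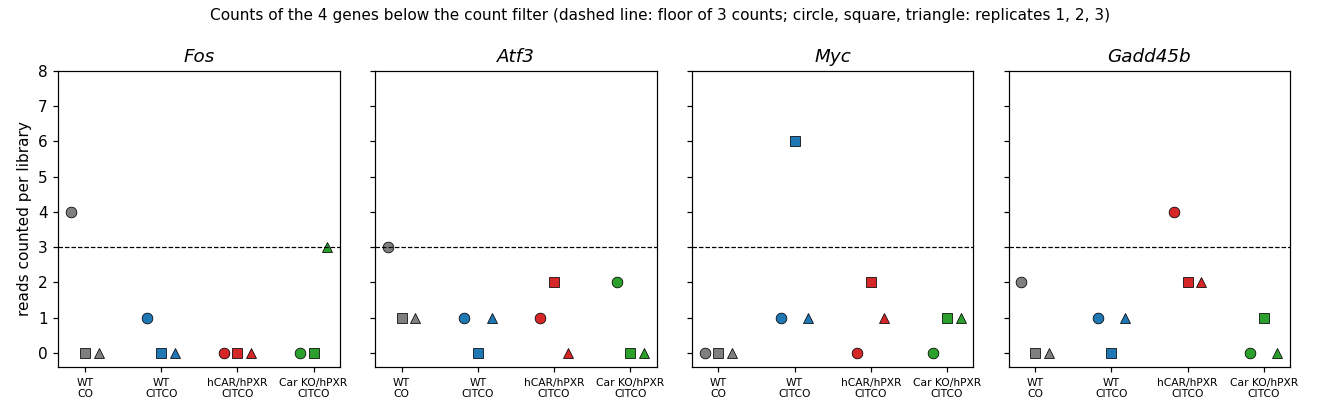
Reads counted per library (vertical axis) for Fos, Atf3, Myc and Gadd45b in the 4 groups, with the floor of 3 counts as a dashed line. All but 3 values lie at or under the floor.

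**Figure D3:**
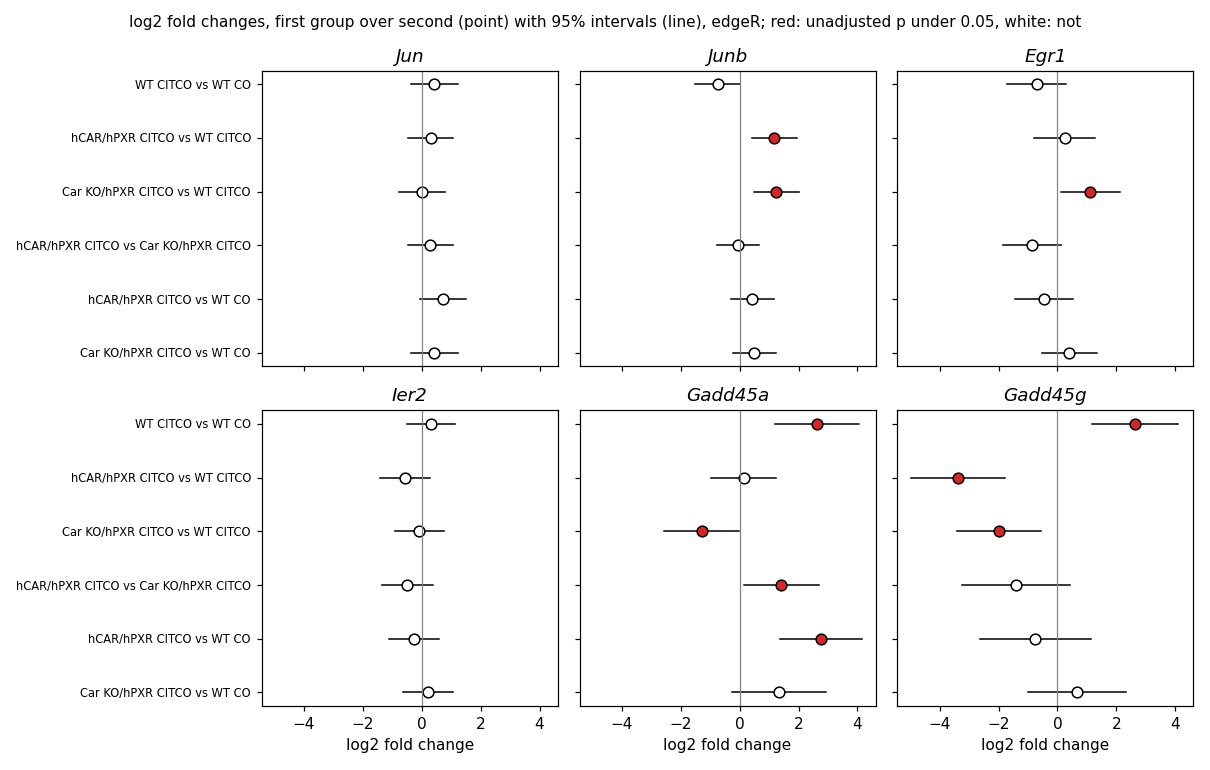
log2 fold changes (horizontal axis, first group over second) of the 6 tested genes in the 6 comparisons, with 95% intervals, red where the unadjusted p was under 0.05. Against WT CITCO, the points of hCAR/hPXR and Car KO/hPXR lie at -3.37 and -1.97 for Gadd45g and at 1.18 and 1.25 for Junb.

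Cell type markers moved with some of these groups. Kupffer cell markers summed to between 304 and 374 CPM in WT CO, 375 and 552 in WT CITCO, 476 and 599 in hCAR/hPXR and 403 and 430 in Car KO/hPXR. Neutrophil markers, of which 8 of 10 were in the files and Ly6g and Camp were at 0 in WT CO, summed to between 5.82 and 8.45 CPM in WT CO, 7.04 and 49.9 in WT CITCO, 46.3 and 220.2 in hCAR/hPXR and 9.86 and 23.4 in Car KO/hPXR. The 3 tested neutrophil markers were called between hCAR/hPXR and WT CO, S100a8 with a log2 change of 3.25 (edgeR adjusted p = 0.00144), S100a9 with 2.63 (0.0387) and Lcn2 with 5.44 (0.0134). S100a8 was also called in hCAR/hPXR against WT CITCO (2.54, edgeR adjusted p = 0.00961) and against Car KO/hPXR (2.16, 0.0242). Between hCAR/hPXR and WT CO the Kupffer cell marker Marco (1.82, edgeR adjusted p = 0.0202) and the red blood cell marker Alas2 (-1.01, 0.0264) were called too. Marco was the only 1 of the 10 Kupffer cell markers called. In that comparison 8 of the 10 were higher and 2 lower (Clec4f at -0.24 and Csf1r at -0.13), and between hCAR/hPXR and WT CITCO 4 were higher and 6 lower. Between WT CITCO and WT CO the log2 changes were 3.64 for Lcn2, which hepatocytes also make in the acute phase, 0.71 for S100a8 and 0.13 for S100a9, and none was called. WT CITCO replicate 3, low in Gadd45a and Gadd45g, also had the lowest neutrophil sum of its group (7.04 CPM). Lcn2 had 60, 34 and 4 counts in the WT CITCO libraries, and the other 7 markers, of which Ly6g and Retnlg were at 0 in that group, summed to 4.22 CPM in replicate 3, also the lowest of its group, against 3.58 to 6.64 in WT CO and at least 34.7 in each hCAR/hPXR library. WT CITCO replicate 3 also had the lowest Kupffer cell sum of its group (375 CPM) and the highest stellate cell sum of the 12 libraries (454 CPM). By group, the neutrophil sums were highest in hCAR/hPXR, where Gadd45g had its lowest mean (1.79 CPM). The part of these markers in the differences of Gadd45a and Gadd45g was not tested.

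The wider immediate early response was set beside the members with a list of 25 other genes, of which 12 were tested and none was called in any of the 6 comparisons. Between WT CITCO and WT CO, 7 were higher and 5 lower (median log2 change 0.24, against -0.00 for all genes tested). Socs3, the feedback inhibitor of cytokine signalling, had 9, 2 and 1 counts in WT CO, 11, 20 and 15 in WT CITCO, 14, 9 and 8 in hCAR/hPXR and 8, 12 and 10 in Car KO/hPXR, and its log2 change between WT CITCO and WT CO was 2.23 (SE 0.56, edgeR adjusted p = 0.140). The dual specificity phosphatase Dusp1 was at 15, 14 and 7 counts in hCAR/hPXR and 31, 19 and 17 in Car KO/hPXR, a log2 difference of -1.17 (SE 0.33, edgeR adjusted p = 0.138), and Cebpb, a factor of the acute phase, was above WT CITCO in hCAR/hPXR by 1.11 (SE 0.31, edgeR adjusted p = 0.184).

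Among 17 tested genes of MAP kinase signalling and its feedback, 1 was called in the 6 comparisons, and the median log2 change of the list between hCAR/hPXR and WT CITCO was -0.12, against 0.01 for all genes tested. Dusp6, the phosphatase that ERK induces to turn itself off, had 179, 151 and 117 counts in hCAR/hPXR against 65, 47 and 53 in WT CITCO, a log2 change of 1.31 (SE 0.26, edgeR adjusted p = 0.0317). It had 68, 65 and 94 counts in WT CO and 76, 126 and 76 in Car KO/hPXR. Between hCAR/hPXR and Car KO/hPXR, no gene of this list had an unadjusted p under 0.05 (edgeR). A list of ATF4 and amino acid stress genes had 7 tested, Atf4 itself among them (median 0.53 between hCAR/hPXR and WT CITCO). Of these Gdf15, a stress hormone, was called, with 36, 16 and 15 counts in hCAR/hPXR against 0, 2 and 4 in WT CITCO (log2 change 3.24, SE 0.62, edgeR adjusted p = 0.0201). WT CO stood at 32, 10 and 18 counts of Gdf15 and Car KO/hPXR at 11, 8 and 6. None of the 12 tested p53 and DNA damage targets and none of the 17 tested partners and targets of Myc was called in the 6 comparisons. Between hCAR/hPXR and WT CITCO their median log2 changes were 0.10 and 0.15. Between WT CITCO and WT CO the median was -0.09 for the p53 list (4 higher and 8 lower) and 0.16 for the Myc list (14 higher and 3 lower). Over the 6 comparisons the medians ranged from -0.15 to 0.10 and from -0.12 to 0.23.

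**Figure D4:**
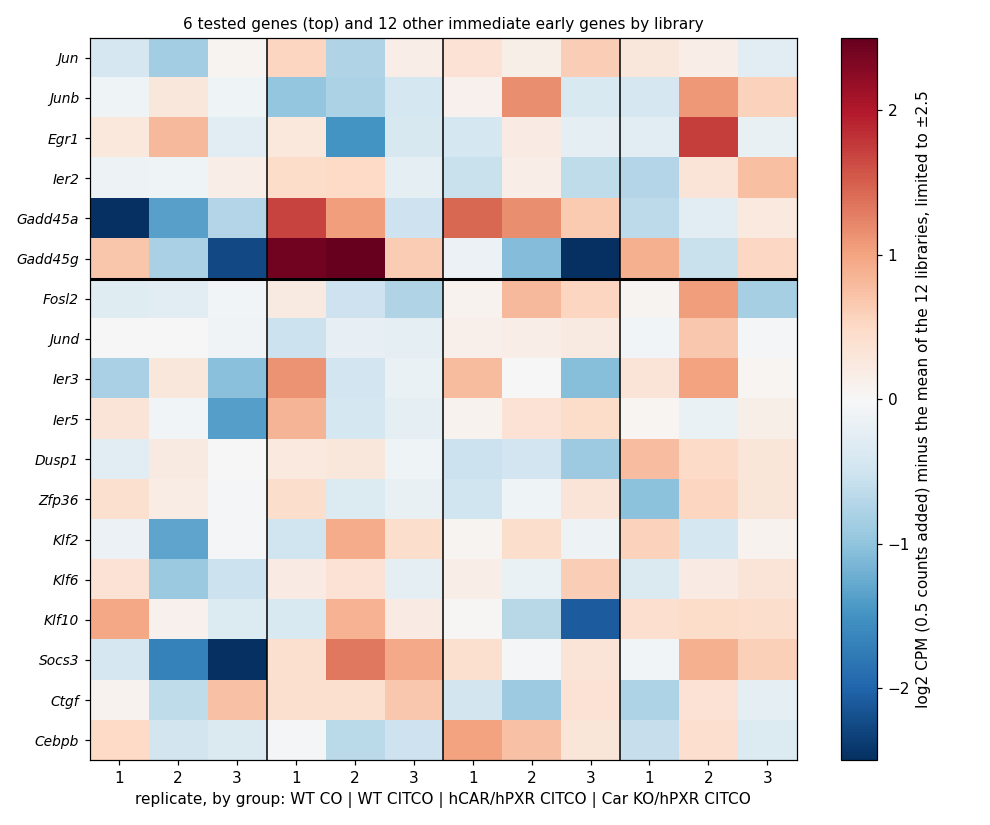
log2 CPM (0.5 counts added) minus the mean of the 12 libraries, for the 6 tested genes (top) and 12 other immediate early genes, by library, limited to 2.5 either way. Gadd45g, Gadd45a and Socs3 reach the colour limit, and in Car KO/hPXR replicate 2 both Junb and Egr1 are high.

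Patterns most like those of the members were found by Pearson's r of log2 CPM over the 12 libraries among genes of at least 10 CPM on average, as a description of libraries that share their depth. Gadd45g was nearest to Phlda1 (r = 0.924), Zfp809 (0.892) and Mgmt (0.890), and Gadd45a to Hspb1 (0.895), Xbp1 (0.893) and Dr1 (0.890). Junb was nearest to Gripap1 (0.866), Mtss1 (0.863) and Zbed4 (0.847), and Egr1 to Nup88 (0.873), Vrk3 (0.821) and Timp2 (0.798). Jun was nearest to Mysm1 (0.883), Esr1 (0.841) and Tfr2 (0.834), and Ier2 to Slc38a10 (0.843), Tulp4 (0.811) and Kdm5b (0.805).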

How the data were processed

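RNAseq of liver was analysed for 12 mice in 4 groups of 3, taken from the sample labels. Libraries were made with Lexogen QuantSeq 3' kits for Ion Torrent. Per the submitters' processing notes, reads were checked with FastQC 11.7, trimmed with Trimmomatic 36 and aligned with STAR 2.5.2. The authors deposited a table of expected counts, made with RSEM 1.3 on GRCm38 without normalisation, and log2-like values from DESeq2's variance-stabilising transformation. RSEM shares a read among the genes it fits, so 9.34% of the values were fractional (genes with reads), and counts were rounded.

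Counts were normalised by TMM and tested with edgeR 4.0.16 (quasi-likelihood, R 4.3.3) in 1 fit of 12 libraries, after filterByExpr, with Benjamini-Hochberg adjustment over 8594 genes, and a gene was called at an adjusted p under 0.05 and a fold over 1.5. Alternatives were limma 3.58.1 on the deposited values, DESeq2 1.42.0, other scalings and filters, a replicate block and leaving out each library, and the scripts were tested on simulated counts. All 10 members were named, with fold changes where the unadjusted p was under 0.05, the 3 nearest genes of each tested member, and called genes of other lists (at most 4 by p). Socs3, Dusp1 and Cebpb were chosen after their values were seen. Members and lists were chosen with earlier results of these data known. Each library was taken as 1 mouse.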

Additional observations from a re-analysis of the deposited data

How the results depend on the processing

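No member passed the threshold in the 6 comparisons of the fit reported above (TMM, default filter). Without a filter on low counts, 2 members passed between WT CITCO and WT CO (Gadd45a and Gadd45g) and 2 between hCAR/hPXR and WT CITCO (Junb and Gadd45g). In that setting 3 passed between Car KO/hPXR and WT CITCO (Junb, Egr1 and Gadd45g) and 1 between hCAR/hPXR and WT CO (Gadd45a). Over the 4 groups 4 passed (Junb, Egr1, Gadd45a and Gadd45g). The cause was not tested. Genes called were then 179, 184, 227, 261 and 540 of 20067 in the same order. Other settings gave 1 member between hCAR/hPXR and WT CO with upper quartile scaling (Gadd45a, adjusted p = 0.0484) or with only the 2 groups, and 1 between Car KO/hPXR and WT CITCO with DESeq2 (Junb). Over the 4 groups, the 1 member (Gadd45g) became 0 with the stricter filter, which it did not pass, and 0 with limma on the transformed values. Leaving out 1 library at a time gave 0 to 2 members between WT CITCO and WT CO, 0 to 1 between hCAR/hPXR and WT CITCO and 0 to 2 over the 4 groups, the highest each time without WT CITCO replicate 3 (with 1 over the 4 groups without WT CO replicate 1, and 0 in the other 10). None of the 10 log2 changes of members refitted under the alternatives turned its sign. These 10 were picked for an unadjusted p under 0.05 (edgeR) in the same libraries, so a kept sign adds little. Genes called between WT CITCO and WT CO were 20, and 54 without WT CITCO replicate 3 and 6 without WT CO replicate 3.

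Deviations of same-numbered replicates correlated at r -0.06 to 0.07 (18 pairs, median 0.03, none over 0.1), against a median of -0.01 over the 36 other pairs, and 9 of 12 libraries correlated best with their own number, a hint from the data and not from the labels. With a replicate block, 1 member passed between hCAR/hPXR and WT CITCO (Gadd45g, adjusted p = 0.0251), and other counts of members did not change.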
